A study of Mus musculus with 4 samples.

Results

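Of the 24394 genes in the table, 9 were taken by symbol as the cytokines, receptors and adaptor of IL-17, IL-22 and IL-23 signalling, namely Il17a, Il17f, Il17c, Il22, Il23a, Il17ra, Il17rc, Il23r and Traf3ip2. All 9 had a row. They were read in 4 mice, of which WT-139 and WT-140 carried intact Usp25 (Usp25+/+) and KO-826 and KO-850 lacked it (Usp25-/-). Values of a genotype follow in that order of mice throughout. All were C57BL/6 mice aged 8 weeks which, per the labels, had drunk 2.5% dextran sulfate sodium (DSS, an agent that injures the gut lining) for 5 days and then plain water for 2 days. RNA came, by the label, from a short stretch of colon near the anus, against which the marker genes below go. The labels do not say how the allele was made, and no untreated mice were analysed here. The comparison asks how this axis differs after DSS with and without Usp25, which encodes a deubiquitinating enzyme known as a negative regulator of IL-17 receptor signalling.

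IL-23, a pair of the Il23a product p19 and the Il12b product p40, is made mainly by dendritic cells and macrophages and acts through Il23r and Il12rb1 on T cells and innate lymphoid cells. These lymphocytes release IL-17A, IL-17F and IL-22. IL-17A and IL-17F signal through IL-17RA with IL-17RC, and the epithelial cytokine IL-17C through IL-17RA with IL-17RE. The receptor tails recruit Act1, the product of Traf3ip2, which passes the signal to TRAF proteins and the NF-kappaB pathway. In the gut this axis is known for antimicrobial defence, barrier repair and neutrophil recruitment.

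Il17a and Il17f are neighbours on chromosome 1, 42654 bases apart and facing each other, and both stood highest in the same mouse. Their promoters are shown for that reason, as the 250 bases before each RefSeq start on mm9, with capitals marking TATAAA and the nuclear receptor half-site AGGTCA (or TGACCT, its other strand). The Il17a window is chr1:20720736-20720985 on the plus strand and the Il17f window is chr1:20774352-20774601 on the minus strand.
Il17a: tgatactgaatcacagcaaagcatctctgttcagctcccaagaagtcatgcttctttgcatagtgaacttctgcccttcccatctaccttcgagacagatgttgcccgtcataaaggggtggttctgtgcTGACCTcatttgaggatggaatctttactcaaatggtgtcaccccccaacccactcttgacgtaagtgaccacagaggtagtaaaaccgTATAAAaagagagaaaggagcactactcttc
Il17f: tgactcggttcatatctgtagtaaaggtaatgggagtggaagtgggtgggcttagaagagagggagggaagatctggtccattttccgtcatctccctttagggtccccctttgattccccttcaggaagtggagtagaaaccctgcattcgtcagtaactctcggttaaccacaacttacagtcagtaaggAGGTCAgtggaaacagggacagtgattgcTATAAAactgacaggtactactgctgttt
TATAAA began at -31 in Il17a and at -29 in Il17f, and the half-site at -120 and -58, counted from the start. On either strand, 12.4% of 32851 mouse promoter windows of this length held TATAAA, 14.0% held AGGTCA and 1.89% held both. RefSeq windows matched 6 of the 9 members, without Il17ra, Il23a and Traf3ip2. Among the other 4, Il23r held 2 half-sites, and Il17c, Il17rc and Il22 held 0, while TATAAA was also in Il17c at -248 and in Il22 at -170. The kappaB-shaped GGGNNNNNCC was in the windows of Il17a, Il17rc and Il23r and in 45.8% of all windows. TGANTCA (AP-1) was in that of Il17a and in 6.75% of all, and TTCNNNGAA (STAT) in 0 of the 6 and in 7.02% of all. None of these matches overlapped a different motif in Il17a or Il17f. A match describes letters only.

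Il22 has a near copy, Iltifb, 79586 bases away on chromosome 10. Their coding sequences differ at 9 of 540 bases, an identity of 98.3%. The 60 coding bases with most differences, at chr10:117642626-117642685 on the plus strand for Il22 and chr10:117731407-117731466 on the minus strand for Iltifb (mm9, exon 2 of both), show how alike the genes are, with the 3 differing bases in capitals.
Il22: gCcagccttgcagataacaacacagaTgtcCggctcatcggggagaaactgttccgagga
Iltifb: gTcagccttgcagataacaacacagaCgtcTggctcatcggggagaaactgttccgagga
Of the 1070 stretches of 36 bases in the Il22 transcript, 530 (49.5%) also occur in Iltifb, whereas Il17a and Il17f share 0. How reads that fit both were assigned is not given, so the level of Il22 is uncertain, and Il17a and Il17f can be told apart.

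Usp25 matched the genotype labels, at 38.5 and 16.6 FPKM in Usp25+/+ mice and at 2.65 and 1.71 FPKM in Usp25-/- mice. Genes that define colon were low. Of 9 colonic epithelium markers, Zg16, Aqp8 and Cdx1 were listed at 0 in all 4 libraries and 7 were below 1 FPKM in each. Of the other 2, Krt20, a keratin, stood at 4.31 and 3.11 FPKM with Usp25 and at 52.4 and 7.35 FPKM without it, and Vil1 did not exceed 1.46 FPKM. Lung markers were abundant, Sftpb at 865 to 3284 FPKM, so these libraries are called colon only by their label. Mouse WT-139 stood apart. The summed level of 7 neutrophil markers was 40108 FPKM in it, against 707 FPKM in WT-140 and 1970 and 1166 FPKM in the Usp25-/- mice, and all 7 were highest in it. Levels of the cytokines below are therefore given with and without it. Whether the neutrophils played a part in them was not tested.

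No member differed between the genotypes past the threshold. Of the 6 members it could test, limma called 0 at 0.05 on the Benjamini-Hochberg adjusted p, and 0 of all 12103 genes (0%). At an unadjusted p under 0.05 it gave 0 members and 400 genes (3.3%). Without the mean-variance trend it also called 0, with 401 genes at that unadjusted p. The other 3 members, Il17c, Il22 and Il23r, did not reach 1 FPKM in 2 mice and have levels only. Groups did not overlap for 1 member with higher values in Usp25-/- mice, Il17rc, and 1 with lower values, Il17ra. Over all genes tested, 19.0% were higher and 14.7% lower without overlap, so these counts are near the background. The smallest p that exact permutation of 2 mice against 2 allows for a gene is 0.33. A limma p-value sets the difference against a variance drawn partly from all genes tested, and it rests on these 4 mice only.

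**Figure D1:**
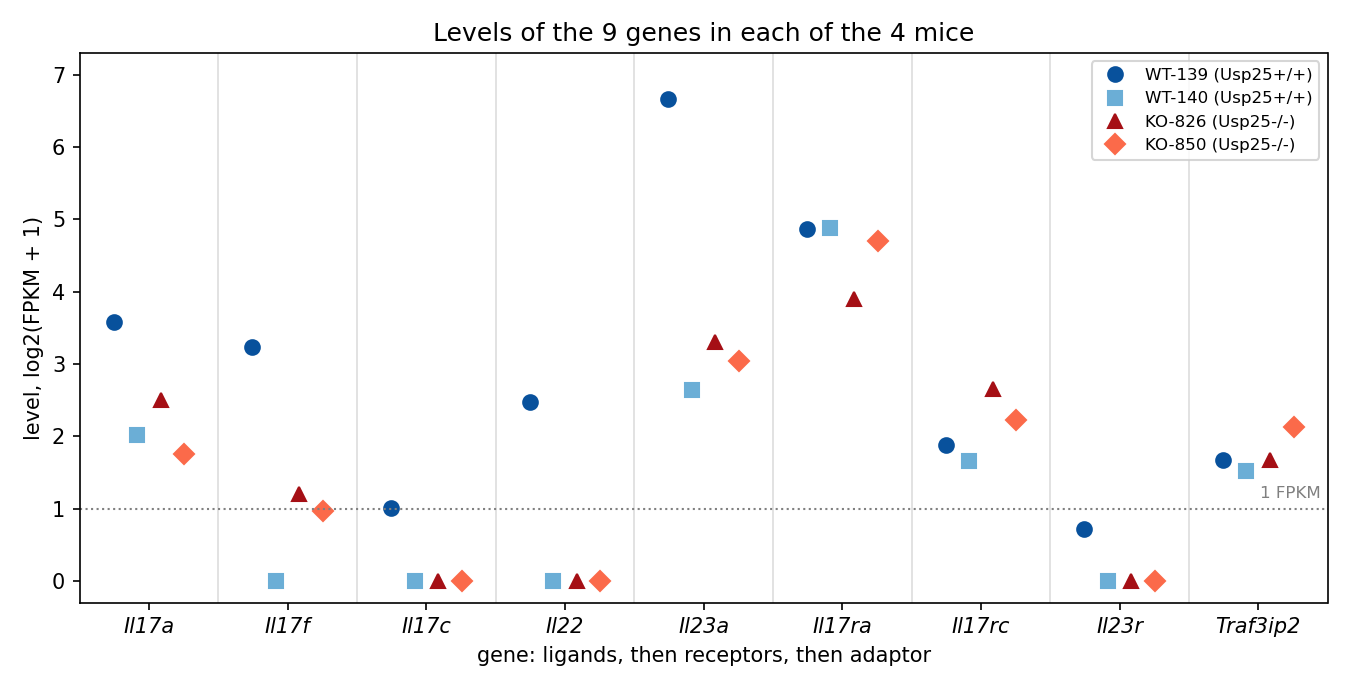
Level of each of the 9 genes as log2(FPKM + 1), with 1 point for each mouse and genes along the horizontal axis. Mouse WT-139 is highest for the 5 ligand genes and Il23r. Il17ra and Il17rc do not overlap between the genotypes, in opposite directions, and neither do 33.7% of all genes tested.

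Il17a, the main cytokine of Th17 cells (gene ENSMUSG00000025929.4, chromosome 1 from 20720986 to 20724577, plus strand, 3 exons), was detected in every mouse. It measured 11.0 and 3.04 FPKM in the Usp25+/+ pair and 4.68 and 2.37 FPKM in the Usp25-/- pair. Mouse WT-139 was high, and mouse WT-140 lay between the Usp25-/- mice, so the groups overlapped. The means were 7.02 ± 5.63 and 3.53 ± 1.63 FPKM (SD, n = 2), and the log2 difference was -0.67 ± 0.61 (SE; limma adjusted p = 0.968). Without mouse WT-139 it was 0.12. In bulk tissue, the number of IL-17-producing cells and the Il17a RNA per cell cannot be told apart. Median FPKM over 7 T cell markers was 1.86 and 1.70 in Usp25+/+ mice and 0.959 and 2.64 in Usp25-/- mice, so that list was highest in mouse KO-850, where Il17a was lowest.

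Il17f, whose product pairs with IL-17A or with itself (chromosome 1 from 20767232 to 20774351, minus strand), had both its extremes in the same genotype. Its level was 8.45 FPKM in WT-139, and it was listed at 0 in WT-140. The Usp25-/- mice had 1.31 and 0.962 FPKM. The Usp25-/- values lay between the Usp25+/+ values, so the groups overlapped. Its log2 difference was -0.53 ± 1.05 (limma adjusted p = 0.975). It turned to 1.09 without mouse WT-139 and to 0.40 with a pseudocount of 0.1 FPKM, so it has no settled direction. Per length, Il17a was 1.30 times Il17f in mouse WT-139 and 3.58 and 2.47 times in the Usp25-/- mice.

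Il22, Il17c and Il23r were above 0 in mouse WT-139 alone. Il22, whose product acts on epithelium (chromosome 10 from 117641998 to 117647098, plus strand), stood there at 4.55 FPKM, and its near copy Iltifb (picked after its values were seen) at 0.347 FPKM and at 0 elsewhere. Il17c (chromosome 8 from 124945920 to 124947539, plus strand) stood at 1.01 FPKM and overlaps the predicted gene Gm20388 on the same strand. Il23r, the specific chain of the IL-23 receptor (chromosome 6 from 67372926 to 67441849, minus strand), stood at 0.645 FPKM. A value of 0 may be an unexpressed gene, a level below detection or a failed estimate, and mouse WT-139 had the deepest library by the rough guide to depth. In that mouse 2696 genes, 11.1% of the table, were above 0 while listed at 0 in the other 3, against 176 genes for WT-140, 522 for KO-826 and 203 for KO-850. Of the 2696, 358 were at least at the level of Il23r, 138 at least at that of Il17c and 10 at least at that of Il22.

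Il23a, which encodes the p19 subunit of IL-23 (gene ENSMUSG00000025383.1, chromosome 10 from 127733196 to 127735140, minus strand, 4 exons), had the widest range of the 9. Readings were 100.3 and 5.23 FPKM in the Usp25+/+ pair and 8.88 and 7.20 FPKM in the Usp25-/- pair. Mouse WT-139 was 11.3 times the highest other mouse, and mouse WT-140 was the lowest of the 4. The means were 52.8 ± 67.2 and 8.04 ± 1.19 FPKM (SD, n = 2), a log2 difference of -1.48 ± 1.27 (limma adjusted p = 0.968). Without mouse WT-139 the sign turned, to 0.53 (limma adjusted p = 0.775). Without mouse WT-140 the difference was -3.49 and Il23a was the 1 member called (limma adjusted p = 0.0368). There the lone mouse WT-139 stood for Usp25+/+ and was taken to vary like the Usp25-/- pair, and 86 of 12103 genes (0.711%) were called lower.

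Few of the tested genes were as far above the other mice in mouse WT-139 as Il23a. Among the 12103 genes tested, 63 (0.521%) had at least its ratio, 146 (1.21%) at least the 6.46 of Il17f and 564 (4.66%) at least the 2.35 of Il17a. For Il17ra, Il17rc and Traf3ip2 that ratio was 0.986, 0.505 and 0.656. These 3 cytokine genes lay on the upper side of the distribution, and the receptors and adaptor within its bulk. The shares cover tested genes only. Genes at 1 FPKM or more in WT-139 alone were left out, among them 141 of the 2696 above 0 only there.

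**Figure D2:**
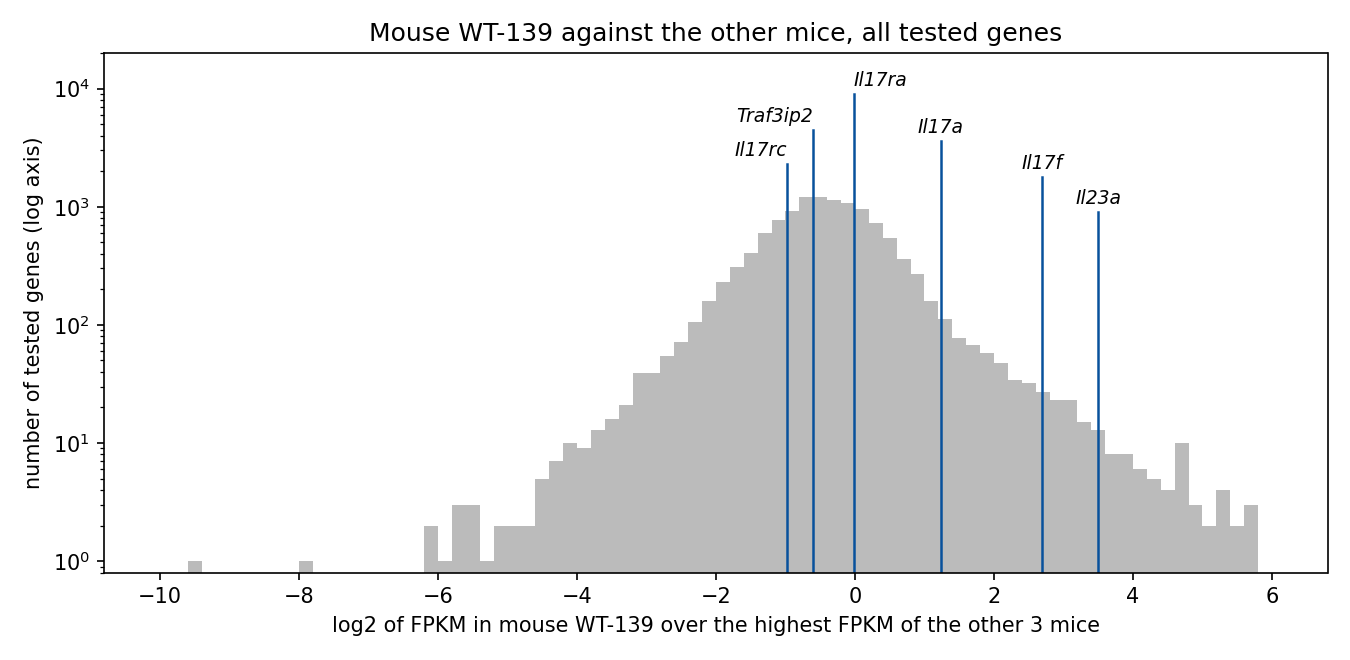
Distribution, over tested genes, of the log2 ratio of the FPKM in mouse WT-139 to the highest FPKM of the other 3 mice, with the number of genes on a log axis. Lines mark the 6 members tested, and the 56 genes listed at 0 in mouse WT-139 are not drawn. Il23a sits where 0.521% of tested genes have as high a ratio.

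Il17ra, the chain shared by the receptors of IL-17A, IL-17F and IL-17C (gene ENSMUSG00000002897.3, chromosome 6 from 120413215 to 120433745, plus strand, 13 exons), was the most abundant member in every mouse but WT-139. It measured 28.1 and 28.5 FPKM in the Usp25+/+ pair and 13.9 and 25.0 FPKM in the Usp25-/- pair. Both Usp25-/- values were below both Usp25+/+ values, mouse KO-850 only slightly. The log2 difference was -0.58 ± 0.37 (limma adjusted p = 0.968). It did not rest on mouse WT-139, without which it was -0.58, but on mouse KO-826, without which it was -0.17.

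Il17rc, the partner chain for IL-17A and IL-17F (gene ENSMUSG00000030281.9, chromosome 6 from 113421421 to 113433134, plus strand, up to 18 exons), lay the other way. Levels were 2.68 and 2.16 FPKM in the Usp25+/+ pair and 5.29 and 3.67 FPKM in the Usp25-/- pair, without overlap. The log2 difference was 0.67 ± 0.32 (limma adjusted p = 0.968) and 0.78 without mouse WT-139. Across the 4 mice and each mouse left out it stayed between 0.45 and 0.89. Within each mouse, Il17ra was 10.5 and 13.2 times Il17rc with Usp25 and 2.62 and 6.81 times without it. That both Usp25-/- ratios were lower follows from the levels of these genes and is no separate result.

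Il17re, the partner chain for IL-17C, lies 675 bases upstream of Il17rc on the same strand and had a like pattern. Levels were 1.09 and 0.471 FPKM with Usp25 and 6.15 and 2.04 FPKM without it. Its log2 difference was 1.41 ± 0.51 (unadjusted p = 0.0372, limma adjusted p = 0.968). Mouse KO-826 was highest for both receptor genes, and without it the log2 difference of Il17re was 0.79. General epithelial markers had the same order of groups. All 5 on the list (Krt8, Krt18 and Krt19, with the adhesion genes Epcam and Cdh1, named after their values were seen) were higher in Usp25-/- mice without overlap, as were 19.0% of all genes tested, with a summed level of 772 and 689 FPKM against 3091 and 1189 FPKM. The part of epithelial content in the levels of Il17rc and Il17re was not tested.

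Traf3ip2, the adaptor gene (gene ENSMUSG00000019842.6, chromosome 10 from 39332740 to 39375113, plus strand, up to 9 exons), showed little spread. Readings were 2.20 and 1.86 FPKM in the Usp25+/+ pair and 2.19 and 3.36 FPKM in the Usp25-/- pair. Only mouse KO-850 lay above the rest, and the groups overlapped at 2.20 and 2.19 FPKM. The log2 difference was 0.30 ± 0.33 (limma adjusted p = 0.968) and 0.39 without mouse WT-139. The gene overlaps 2 genes of the opposite strand, Gm16365 and E130307A14Rik. The latter, picked after its values were seen, stood at 1.14 to 1.79 FPKM, and the strand setting is not given, so their reads may not be separable.

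**Figure D3:**
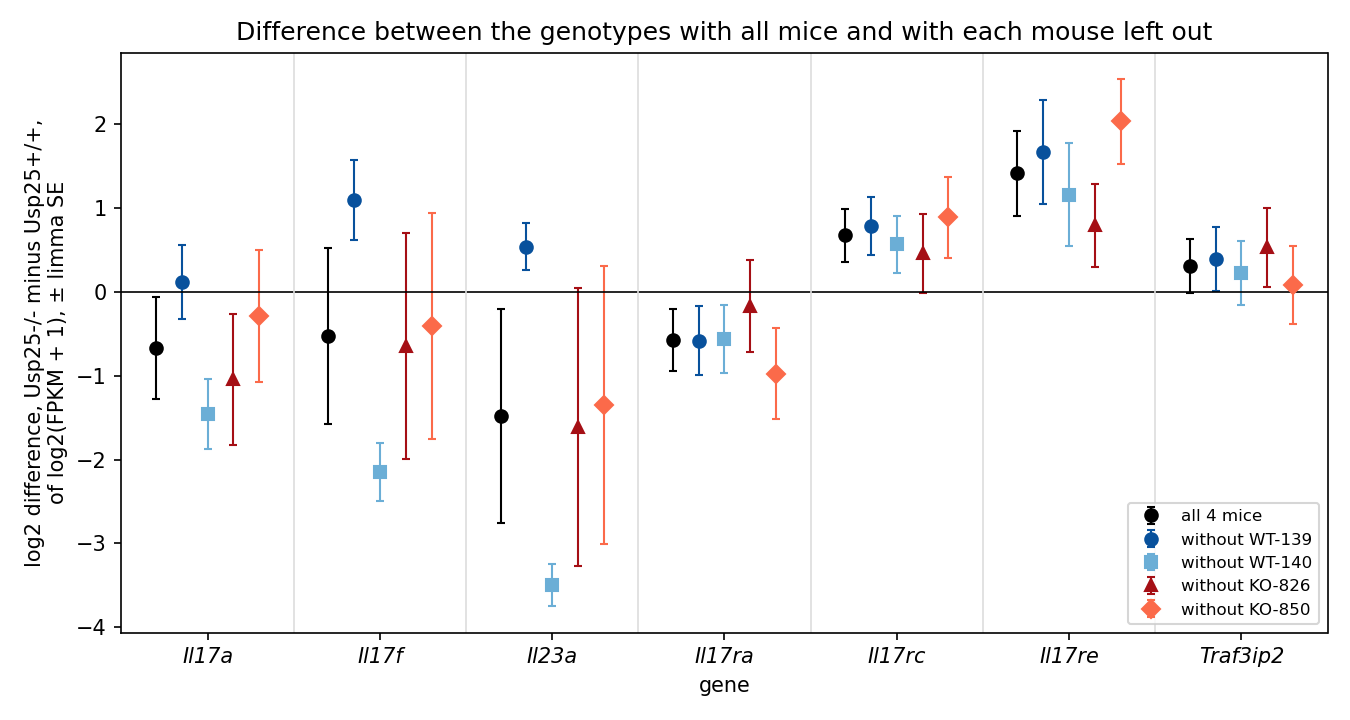
Log2 difference between the genotypes, Usp25-/- minus Usp25+/+ on the log2(FPKM + 1) scale, for the 6 members tested and Il17re, with all 4 mice and with each mouse left out; bars are limma's standard error. Il17a, Il17f and Il23a change sign without mouse WT-139, and Il17ra, Il17rc, Il17re and Traf3ip2 keep theirs.

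In order of FPKM, a level per length, Il17ra was first in 3 mice and Il23a in mouse WT-139. Il23a came next in those 3, at 5.23 to 8.88 FPKM. The ranges of Il17a (2.37 to 11.0 FPKM), Il17rc (2.16 to 5.29 FPKM) and Traf3ip2 (1.86 to 3.36 FPKM) overlapped, so their order is not settled by 4 mice. Il17f, Il22, Il17c and Il23r were the lowest in the 3 mice other than WT-139. There, Il17ra had a level above that of 83.0% to 90.5% of genes in the table and Il23a above 69.7% to 77.1%.

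By the distance between centred log2(FPKM + 1) values over the 4 mice, among 11364 named genes, Il23a lay nearest to Crispld2, Thbs1 and Cxcr2, a chemokine receptor of neutrophils, at 0.250 to 0.337. Il17f lay nearest to Lmnb1, Ltb4r1 and Rap1gap2 (0.198 to 0.387), and Il17a to Fcrlb, Bcl2a1b and Dot1l (0.0289 to 0.0697). Il17ra lay nearest to Sipa1, Myo1f and Foxo3, Il17rc to Rbbp7, Mtfr1 and Pdhb, and Traf3ip2 to Arl5a, Smc3 and Guf1, all within 0.103. With 4 points many genes fit a pattern, so these names describe the libraries.

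Of the partner chains on the IL-23 and IL-22 side, Il12b and Il10rb had lower means in Usp25-/- mice, short of the threshold. The rest were too low to test. Il12b, which encodes p40, had 2.56 and 1.23 FPKM with Usp25 and 0.665 and 0.942 FPKM without (log2 difference -0.65 ± 0.38, limma adjusted p = 0.968, and -0.31 without mouse WT-139). Il12rb1, the second chain of the IL-23 receptor, did not exceed 0.479 FPKM. Il22ra1, the specific chain of the IL-22 receptor, stood at 0.257 to 0.873 FPKM, and Il22ra2, a soluble decoy, reached 1.38 FPKM in WT-139 and no more than 0.146 FPKM elsewhere. Il10rb, the chain IL-22 shares with IL-10, was abundant, at 161 and 85.3 FPKM against 51.1 and 65.9 FPKM, without overlap (log2 difference -1.0 ± 0.42, limma adjusted p = 0.968, and -0.55 without mouse WT-139). The groups did not overlap for Il12b either, and 14.7% of all genes tested were lower without overlap. Il25 was listed at 0 outside mouse WT-139, and Il17rb, its receptor, did not exceed 0.562 FPKM.

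Over the wider pathway, too, which genotype had the higher means depended on mouse WT-139. Of 87 genes in 9 pathway lists, 69 were tested and limma called 0. At an unadjusted p under 0.05 there were 6, a threshold met by 3.3% of all genes tested. Usp25, which the genotype itself removes, is among these 6 and among the lower genes counted next. Of the 69, 53 had lower and 16 higher mean values in Usp25-/- mice, with a median log2 difference of -0.46, against 0.03 over all genes. Without mouse WT-139, 27 were lower and 42 higher, with a median of 0.14, against -0.01 over all genes. Mouse WT-139 was highest for 52 of the 69 (75.4%), against 29.7% of all genes tested.

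Among 23 tested IL-17 target genes, 17 were lower and 6 higher in Usp25-/- mice, with a median log2 difference of -0.85. Without mouse WT-139, 17 were higher and 6 lower, with a median of 0.69. S100a8, which encodes an antimicrobial protein of neutrophils and epithelium and is also on the neutrophil list, had 19445 FPKM in WT-139 and 382, 838 and 536 FPKM in the other 3. Nfkbiz, a transcriptional cofactor induced by IL-17, stood at 391 and 81.5 FPKM against 73.2 and 61.0 FPKM (log2 difference -1.41, and -0.28 without mouse WT-139). The chemokine gene Ccl7 and the collagenase gene Mmp13 had higher means in Usp25-/- mice. Ccl7 was at 0 and 1.73 FPKM against 12.5 and 13.2 FPKM, and Mmp13 at 4.82 and 1.22 FPKM against 15.2 and 6.97 FPKM. Their groups did not overlap, which was a condition for naming them. Of the 23 genes, 3 were higher and 1 lower without overlap, against 19.0% and 14.7% of all genes tested. The log2 differences of Ccl7 and Mmp13 were 3.06 and 1.66 (limma adjusted p = 0.968 for both), and 2.34 and 2.36 without mouse WT-139. Without mouse WT-140 they were 3.79 and 0.97.

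Of 9 tested IL-22 target genes, 7 were lower and 2 higher, and without mouse WT-139, 2 were lower and 7 higher. The median log2 difference turned from -1.57 to 0.81. Reg3b, an antimicrobial lectin of gut epithelium picked after its values were seen, was listed at 0 in all 4 mice. Socs3, a feedback inhibitor of STAT3, kept its direction, at 189 and 132 FPKM against 81.3 and 86.7 FPKM, and so did the membrane mucin gene Muc1, at 18.8 and 23.6 FPKM against 34.8 and 30.5 FPKM. The groups overlapped for the other 7, of which Reg3g and Fut2 (picked after their values were seen) also kept their direction without mouse WT-139. Over all genes tested, 33.7% did not overlap. Of the 12 genes, 3 are also in the IL-17 target list, S100a8 and S100a9 among them.

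Of 13 adaptors and kinases, 11 were lower and 2 higher in Usp25-/- mice. Without mouse WT-139, 6 were lower and 7 higher, and the median log2 difference went from -0.30 to 0.10. Tbk1, a kinase known to phosphorylate Act1, stood at 56.2 and 23.6 FPKM against 20.6 and 18.4 FPKM. Of 6 tested inhibitors, Usp25 among them, 5 were lower with all mice and 4 without mouse WT-139. Tnfaip3, which encodes the deubiquitinase A20, stood at 582 and 158 FPKM against 142 and 110 FPKM. Traf4, which competes with TRAF6 for Act1, was the 1 higher member, at 8.90 and 8.63 FPKM against 20.9 and 14.0 FPKM (log2 difference 0.89 ± 0.32, limma adjusted p = 0.968, and 0.91 without mouse WT-139).

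All 7 tested genes of the IL-23 and IL-12 list were lower in Usp25-/- mice, and 3 of them without mouse WT-139. Tyk2, a kinase of both cytokines' receptors, kept its size, at 11.4 and 12.0 FPKM against 6.42 and 7.74 FPKM (log2 difference -0.65, and -0.69 without mouse WT-139). In the IL-22 and IL-10 receptor list, 5 genes were tested, the chains Il10rb and Il10ra and the signalling genes Jak1, Tyk2 and Stat3. Il22, Il22ra1 and Il22ra2 were not. All 5 were lower with and without mouse WT-139, with medians of -0.65 and -0.28. Without that mouse, however, Jak1 and Stat3 were near 0, at -0.02 and -0.05. Tyk2 and Stat3 are in both lists. Among 7 tested regulators of Th17 and type 3 innate lymphoid cells, 4 were lower and 3 higher. Batf, a factor needed for Th17 cells, stood at 70.8 and 25.3 FPKM against 19.9 and 18.9 FPKM.

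Marker lists of the cells that make or answer these cytokines were read beside the pathway. The median over 8 markers of dendritic cells and macrophages, the main source of IL-23, was 49.4 and 27.9 FPKM with Usp25 and 24.3 and 26.1 FPKM without it. That median was highest in WT-139, but only 2 of the 8 genes were, and the summed level of all 8 was 672 and 1250 FPKM against 554 and 757 FPKM. Over 7 markers of innate lymphoid and natural killer cells it was 0.841 and 0.352 FPKM against 0.540 and 0.752 FPKM, and over 7 lung epithelium markers 172 and 176 FPKM against 183 and 227 FPKM. Smooth muscle markers, which a piece of colon wall should hold, had a median of 0.352 to 0.814 FPKM. Of the whole IL-17 ligand list, 2 of 6 genes could be tested, Il17a and Il17f, both lower with all mice and both higher without WT-139. Of 5 receptor genes, 3 could be tested, and Il17rc and Il17re stayed higher and Il17ra lower in Usp25-/- mice without that mouse. The part of any of these cell types in the pathway's levels was not tested.

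**Figure D4:**
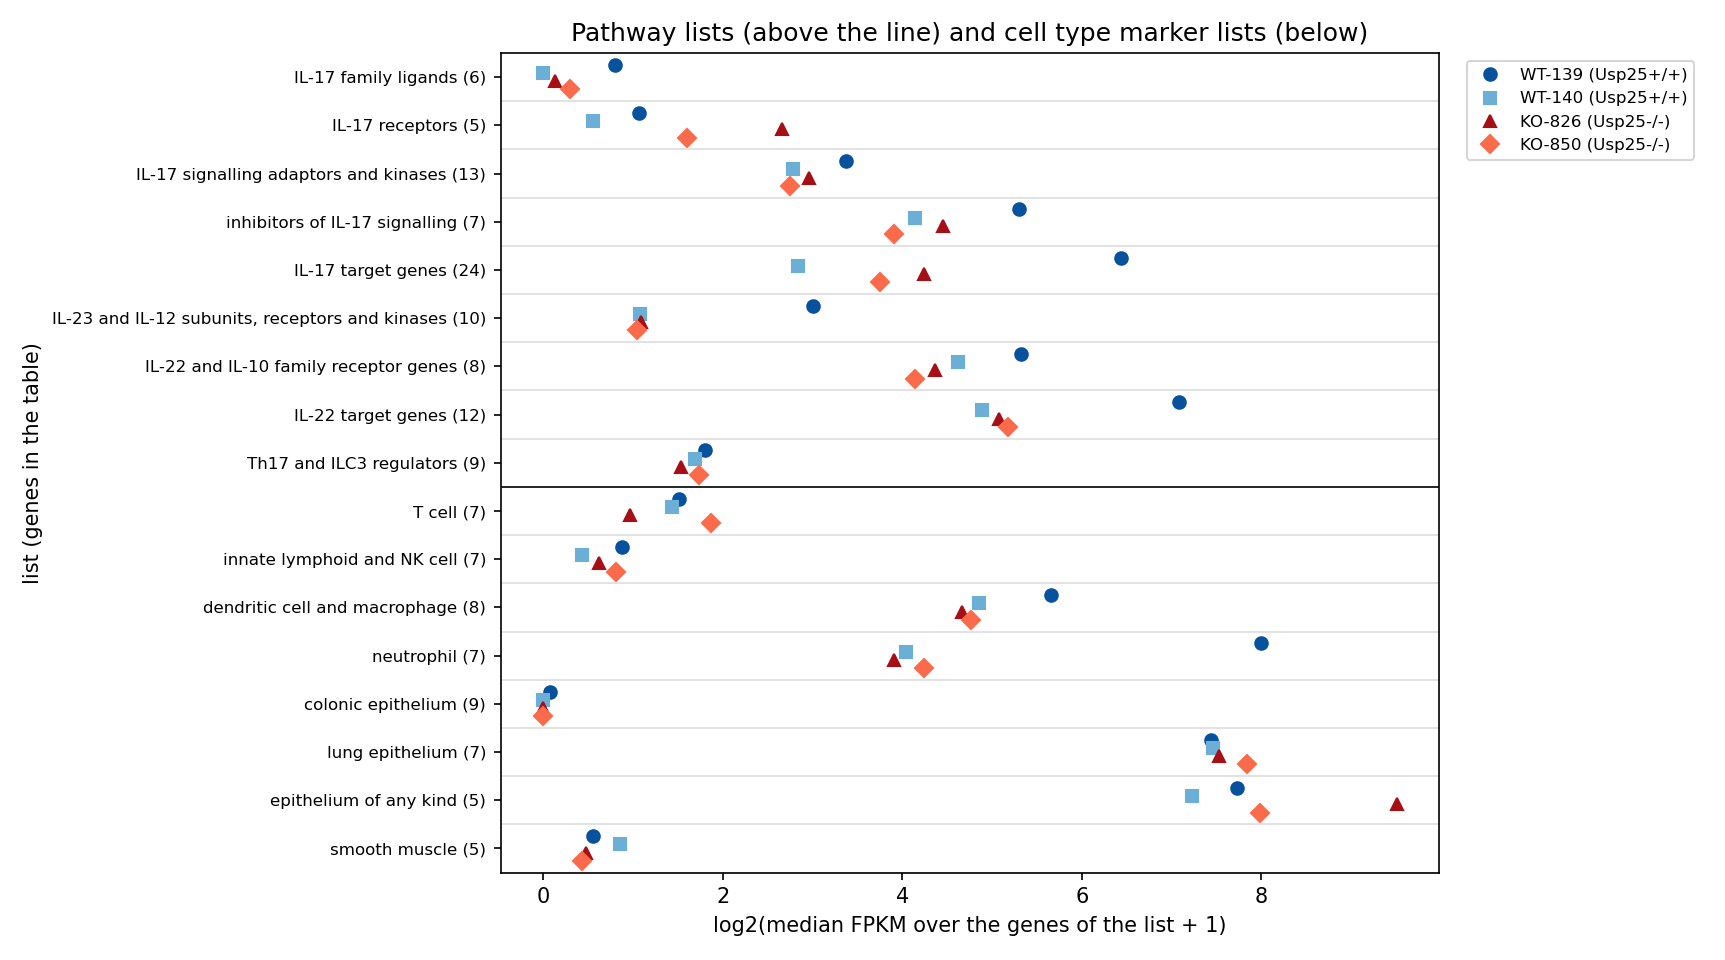
Median FPKM over the genes of each list, as log2(median + 1) on the horizontal axis, with 1 point for each mouse; pathway lists lie above the black line and cell type markers below it. Mouse WT-139 is highest for every pathway list but IL-17 receptors. It is also highest for markers of neutrophils, of dendritic cells and macrophages, and of innate lymphoid and natural killer cells. It is not highest for T cell, lung epithelium, general epithelium or smooth muscle markers, and colonic epithelium markers lie near 0 in every mouse.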

How the data were processed

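Messenger RNA of 4 mice was measured by sequencing, 1 library for each mouse. Per the submitters' processing notes, Bowtie 0.12.2 and the mm9 build were used, and the authors deposited 1 table of FPKM values (fragments per transcript length and sequencing total). How the authors computed the FPKM, with which annotation, strand setting, read length or filter, is not given in the sources used here. An FPKM table holds no read totals, so depth is unknown. The most frequent product of FPKM and length over 2487 genes with 1 exon put mouse WT-139 at 1.25, mouse KO-826 at 0.791 and mouse KO-850 at 0.745 times the depth of mouse WT-140. At most 3.63% of values sat there, so no test used it.

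After 27 rows with date-like names were dropped, 24394 genes remained. The 12103 genes at 1 FPKM or more in at least 2 mice were fitted as log2(FPKM + 1) with limma 3.58.1 (R 4.3.3), with a mean-variance trend and Benjamini-Hochberg adjustment over all genes tested, at a threshold of 0.05. No pairing is recorded, so there was no block. A log2 difference is Usp25-/- minus Usp25+/+ on this scale, which understates low genes. Alternatives were another pseudocount, other filters and scalings, no trend, and leaving out each mouse over the same 12103 genes. Other steps used Python 3.11.15, pandas 2.3.3 and matplotlib 3.10.9. Members and lists were chosen with earlier results of these data known. The text names all members and their partner chains. From each pathway list it can name up to 2 genes a side with the largest difference among groups that do not overlap, filled by level, and from each marker list the 3 most abundant and any at 0 in all mice. Other genes are said to be picked after their values were seen. Positions are Gencode's on mm9. Promoters are RefSeq's, placed on mm9 by exact match. A gene of the regulator list is not reported here.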

Additional observations from a re-analysis of the deposited data

How the results depend on the processing

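Across the alternatives, 55 of 60 recomputed log2 differences of the 6 tested members kept their direction and stayed short of the threshold. With a pseudocount of 0.1 FPKM, Il17f turned to 0.40, since a value of 0 weighs more there. Leaving out each mouse in turn moved Il17a between -1.46 and 0.12, Il17f between -2.15 and 1.09 and Il23a between -3.49 and 0.53, the high ends without mouse WT-139 and the low ends without mouse WT-140. The same step took the number of genes called by limma from 0 to 92, the number of members called from 0 to 1, and the pathway list genes with higher values from 13 to 42 and with lower values from 27 to 56. The 92 genes, 6 higher and 86 lower, came without mouse WT-140. Fits without a mouse assume that the lone mouse of a group varies like the other pair. Of 180 recomputed counts for single lists, 150 stayed within 1.5 times. Neither scaling turned a member. No paired analysis was possible because the labels give no litter, batch or pairing, and mice of a genotype were numbered only in the order of their deposition. Depth is unknown, so levels listed at 0 have no limit.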

Other observations

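Il12a, the p35 subunit of IL-12 (picked after its values were seen), had a level of 19.9 FPKM in WT-139 and was listed at 0 in WT-140, and its Usp25-/- levels were 0.187 and 0.247 FPKM. Per length, Il23a was 5.03 times Il12a in mouse WT-139. It was 47.4 and 29.1 times Il12a in the Usp25-/- mice, where the low Il12a levels make the ratio uncertain. Mouse WT-140 allows no ratio. Il23a was 39.2 times Il12b in mouse WT-139 and 4.24, 13.4 and 7.64 times in the other 3. Against the median of 8 markers of dendritic cells and macrophages, the ratio of Il23a was 2.03 in WT-139 and 0.187, 0.365 and 0.276 in the others, so mouse WT-139 remained the highest on this scale.

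Against the median of 7 T cell markers, Il17a stood at 5.93 and 1.79 in Usp25+/+ mice and at 4.88 and 0.898 in Usp25-/- mice, so on this scale the genotypes also overlapped. Among 7 markers of innate lymphoid and natural killer cells, Id2, a factor that many other cells also express, stood at 134 to 245 FPKM, Klrb1c at 0.284 to 1.03 FPKM and Ncr1, picked after its values were seen, at 0.226 to 0.292 FPKM. Il7r, an interleukin receptor chain of lymphocytes, had its highest level, 12.2 FPKM, in WT-139 and stood at 3.12 to 8.83 FPKM in the others. Ratios were also taken to Epcam, an epithelial adhesion gene (picked after its values were seen). Il17rc stood at 0.0463 and 0.0604 of Epcam in Usp25+/+ mice and at 0.0259 and 0.0524 in Usp25-/- mice, where the groups overlapped. Il17re stood at 0.0189 and 0.0132 of Epcam against 0.0300 and 0.0291, where they did not. Epcam is only one among the 5 general epithelial markers listed, and ratios to the rest were not taken. The share of all genes without overlap on this scale was not computed. Whether Il17re exceeded epithelial content in Usp25-/- mice was therefore not tested.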
